A study of Mus musculus with 6 samples.

Results

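The TRIM (tripartite motif) family was described in megakaryocyte-erythroid progenitors, marrow cells whose progeny are red cells and platelets, of mice with an altered Fog1 gene. Members were taken as the probe sets whose single gene symbol was Trim followed by a number and at most 1 letter, which gave 58 genes, each with 1 probe set, of 19661 genes measured. RNA came from mice with a knock-in on both Fog1 alleles (Fog1ki/ki, 3 arrays) and from mice with intact Fog1 alleles (Fog1+/+, 3 arrays), all on a B6.129 background. The labels give no age, no treatment, no number of animals per array and no account of what the knock-in changes. The cells had been sorted for Kit without lineage markers, Sca1 or CD34 and with low Fc gamma receptor II/III. As known of this mouse line outside the labels, its FOG1 has lost contact with NuRD, a chromatin-remodelling and deacetylase complex. The arrays compare transcripts between this line and mice with intact Fog1 alleles.

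TRIM proteins typically carry a RING finger, which passes ubiquitin from an E2 enzyme to a target protein, followed by B-box and coiled-coil segments through which they assemble. The part after the coiled coil differs between members and sets the targets: most carry a SPRY domain, others an NHL repeat, a PHD finger with a bromodomain or a membrane anchor. In the erythroid lineage the family is known for Trim10, also called HERF1, which is needed for terminal maturation of mouse erythroid cells in culture, and for Trim58, which marks dynein for degradation in maturing erythroblasts. Trim9 is best known from neurons, where it binds the netrin receptor DCC and the fusion protein SNAP25. FOG1, the product of Zfpm1, acts together with GATA1, and GATA1 drives the erythroid genes among which Trim10 and Trim58 are counted.

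Values are log2 intensities after RMA, the authors' normalization and summary of probes, so that a difference of 1 is a 2-fold change. Array medians over all probe sets lay between 6.02 and 6.15 and lower quartiles between 4.81 and 4.92, and signal above background was not tested. All 7 measured markers of the labelled cells, including Gata1, Klf1, Epor and Zfpm1, had genotype means at or above the array medians. Of 8 measured genes of cells outside the gate, 4 (Cd34, Cd79a, Itgam and Ly6g) were below the lower quartiles in both genotypes, while the neutrophil gene Mpo (6.63 in Fog1ki/ki and 6.42 in Fog1+/+) and the T cell gene Cd3e (6.74 and 6.66 in the same order) were above the medians. Replicate 3 of each genotype had low Y-linked values (Eif2s3y at 3.46 in Fog1ki/ki and 3.21 in Fog1+/+, against at least 9.29 elsewhere) and Xist at 11.03 and 11.02. Fog1ki/ki replicate 2 had Eif2s3y at 9.44 together with Xist at 9.13, where the other arrays with high Eif2s3y had Xist between 5.18 and 5.90. In sorted bulk cells, a change in the share of a cell type and a change in RNA per cell cannot be told apart.

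Most of the family differed little between the genotypes, and 2 members stood out, Trim9 with more transcript in Fog1ki/ki and Trim2 with less. At an adjusted p under 0.05 (limma, Benjamini-Hochberg over all genes) 1 of 58 members rose, 1 fell and 56 did not pass. Among all genes 0.773% passed, 0.376% higher and 0.397% lower, beside 3.45% of the members, and the difference between these shares was not tested. The members and Trim9 were chosen with earlier results of these data known, so the share of members is not free of that choice. Without both replicates 3 no member passed. The absolute difference was under 0.3 in 53 members (91.4%), against 91.9% of all genes. The median difference over members was 0.00 and over all genes 0.02, and 28 members lay above 0, 28 below and 2 at 0. Fog1ki/ki and Fog1+/+ values did not overlap in 12 members, 7 higher and 5 lower, which is 20.7% beside 14.8% of all genes (8.31% higher and 6.53% lower).

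**Figure D1:**
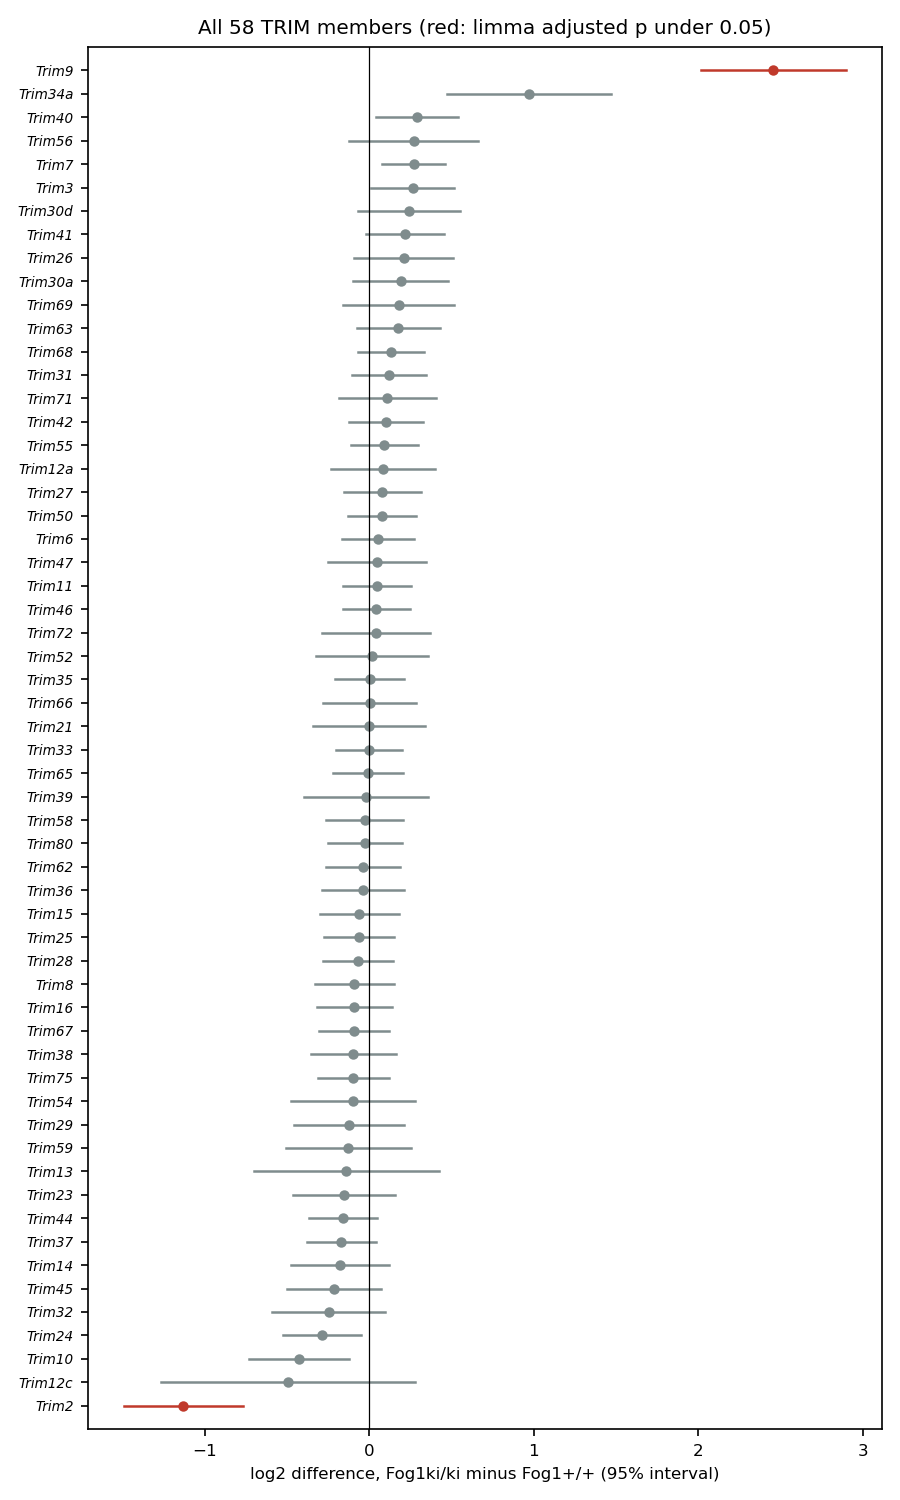
Log2 difference of each of the 58 TRIM members, Fog1ki/ki minus Fog1+/+, with its 95% interval from limma (3 arrays each); members with an adjusted p under 0.05 are red. Trim9 at 2.46 and Trim2 at -1.13 lie at the ends, and 53 members lie within 0.3 of 0.

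Trim9, the neuronal ligase, had the largest difference of the family. It measured 8.34, 7.43 and 7.87 in the Fog1ki/ki arrays, against 5.41, 5.43 and 5.43 in the Fog1+/+ arrays. Every Fog1ki/ki array was at least 2.0 log2 units above the highest Fog1+/+ array, and the Fog1ki/ki arrays were spread more widely (SD 0.46 against 0.01, n = 3 each). The difference was 2.46 (95% interval 2.01 to 2.90, limma adjusted p = 0.000952). In Fog1+/+ its values lay between the lower quartiles and the medians of the arrays. The call remained without any 1 array (difference 2.23 to 2.68), and without both replicates 3 the difference was 2.47 with an adjusted p of 0.0552 in limma.

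Trim9 belongs to the members with a COS box, a fibronectin type III repeat and a SPRY domain, and the other 3 measured members of that architecture did not pass. Trim67, its closest relative, measured 6.21, 6.30 and 6.36 in Fog1ki/ki and 6.37, 6.47 and 6.31 in Fog1+/+, a difference of -0.09 (95% interval -0.30 to 0.12). Trim36 had a difference of -0.04 and Trim46 one of 0.04. A list of genes around Trim9 held the netrin gene Ntn1, netrin receptors, Ena/VASP proteins and SNARE proteins, and was not limited to known Trim9 partners. Of its 13 measured genes 0 were called in limma, and the median difference was 0.08. An unadjusted p under 0.05 was reached by 1 higher and 1 lower gene, beside 4.99% and 4.58% of all genes. The smallest p in that list was that of Snap23, a SNARE protein of non-neuronal cells, at -0.28 (adjusted p = 0.404). Snap23 was the only 1 of the 13 below 0, and the other 12 lay above 0. Among all genes 11062 of 19661 lay above 0, with a median of 0.02. Only 4 of the 13 had both genotype means at or above the array medians. The higher gene at an unadjusted p under 0.05 was Enah, at 0.22 without overlap (adjusted p = 0.504, limma).

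Neuronal marker genes gave no calls in the same arrays. Of 11 neuronal markers 0 passed in limma, with 0 at an unadjusted p under 0.05, and their median difference was 0.06, while Rbfox3, a splicing factor of mature neurons, had the smallest p with 0.13 (adjusted p = 0.701). The mean of the 11 markers ranged from 5.40 to 5.50 in the Fog1ki/ki arrays and from 5.31 to 5.42 in the Fog1+/+ arrays. Of 11 mast cell markers 2 rose, Ms4a2, the beta chain of the IgE receptor, by 3.79 and the transcription factor gene Gata2 by 1.14, the other 9 did not pass, and the mean of the whole list was 6.37, 6.11 and 5.93 in the Fog1ki/ki arrays and 5.45, 5.43 and 5.42 in the Fog1+/+ arrays. Of these 11 markers 10 had a difference above 0, an unadjusted p under 0.05 was reached by 4 higher and 1 lower, and the median difference was 0.21. Among all genes 0.376% rose, 11062 of 19661 lay above 0 and 4.99% were higher at an unadjusted p under 0.05. Cpa3, Mcpt4, Tpsab1, Tpsb2, Mrgprb2 and Hdc overlapped between the genotypes, with differences of 0.53, 0.21, 0.13, 0.07, 0.06 and 0.06. Fcer1a, the alpha chain of the IgE receptor, measured 7.46, 6.93 and 5.24 in Fog1ki/ki and 4.64, 4.61 and 4.65 in Fog1+/+, without overlap (difference 1.91, adjusted p = 0.147, limma). Cma1, a mast cell protease, had a difference of 0.21 (adjusted p = 0.486, limma). Kit, the stem cell factor receptor by which the cells were sorted, had -0.38 (adjusted p = 0.232, limma), and neither gene overlapped between the genotypes. In Fog1+/+ Ms4a2 averaged 4.74, under the array lower quartiles, while Gata2 averaged 7.25, above the array medians. A high Gata2 value was thus not confined to Fog1ki/ki. Gata2 did not pass without Fog1ki/ki replicate 3 or any 1 Fog1+/+ array (adjusted p from 0.0579 to 0.0875, limma). The part of mast cells in the Trim9 difference was not tested. Of the 20 tested genes nearest to Trim9 on chromosome 12, 10 on each side, 2 fell and 0 rose, and 5 had an unadjusted p under 0.05, all of them lower without overlap. Among all genes 0.397% fell, 4.58% were lower at an unadjusted p under 0.05 and 6.53% were lower without overlap. The neighbours that fell were Atl1, a GTPase that shapes the endoplasmic reticulum (-0.98, limma adjusted p = 0.00156), and the kinase Map4k5 (-0.62, limma adjusted p = 0.0169). Without any 1 array Atl1 still passed, while Map4k5 did not without Fog1ki/ki replicate 2 or 3 or any 1 Fog1+/+ array (adjusted p from 0.0588 to 0.116, limma). The other lower neighbours were Sav1 at -0.41 (adjusted p = 0.194, limma), Nin at -0.29 (adjusted p = 0.351, limma) and Tmx1 at -0.27 (adjusted p = 0.485, limma).

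Trim2 was the member that fell. It encodes an NHL-repeat ligase that marks the neurofilament light chain for degradation in mouse neurons. It measured 4.72, 4.76 and 5.14 in the Fog1ki/ki arrays, against 5.72, 6.05 and 6.24 in the Fog1+/+ arrays. The genotypes did not overlap, and the Fog1ki/ki mean of 4.87 was within the range of the array lower quartiles. The difference was -1.13 (95% interval -1.49 to -0.77, limma adjusted p = 0.0166), a 2.19-fold lower value. The Trim2 call was lost without Fog1ki/ki replicate 1 or 2 (adjusted p = 0.0522 and 0.0867, limma) and without Fog1+/+ replicate 2 or 3 (adjusted p = 0.0642 and 0.0800, limma). It was lost too without both replicates 3 (adjusted p = 0.0865, limma). Over the 16 alternative settings its difference ran from -1.27 to -1.01.

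The other members with an NHL repeat differed less. Trim3, a brain-expressed ligase, measured 6.68, 6.76 and 6.88 in Fog1ki/ki and 6.33, 6.64 and 6.56 in Fog1+/+, a difference of 0.26 in the direction opposite to Trim2 (limma adjusted p = 0.493). Trim32, mutated in a human limb-girdle muscular dystrophy, had a difference of -0.25 (adjusted p = 0.678) that was 0.00 without both replicates 3, and Trim71, a stem cell regulator of mRNA, one of 0.11 (adjusted p = 0.855). The neurofilament gene Nefl was below the array lower quartiles in both genotypes (4.15 in Fog1ki/ki and 4.06 in Fog1+/+). None of the 20 tested genes nearest to Trim2 on chromosome 3 was called in limma, and 3 of them had an unadjusted p under 0.05, beside 9.57% of all genes. The neighbours on either side were lower on all Fog1ki/ki arrays than on any Fog1+/+ array, with a difference of -0.61 for Fhdc1 (adjusted p = 0.130) and of -0.33 for Tmem131l (adjusted p = 0.316).

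**Figure D2:**
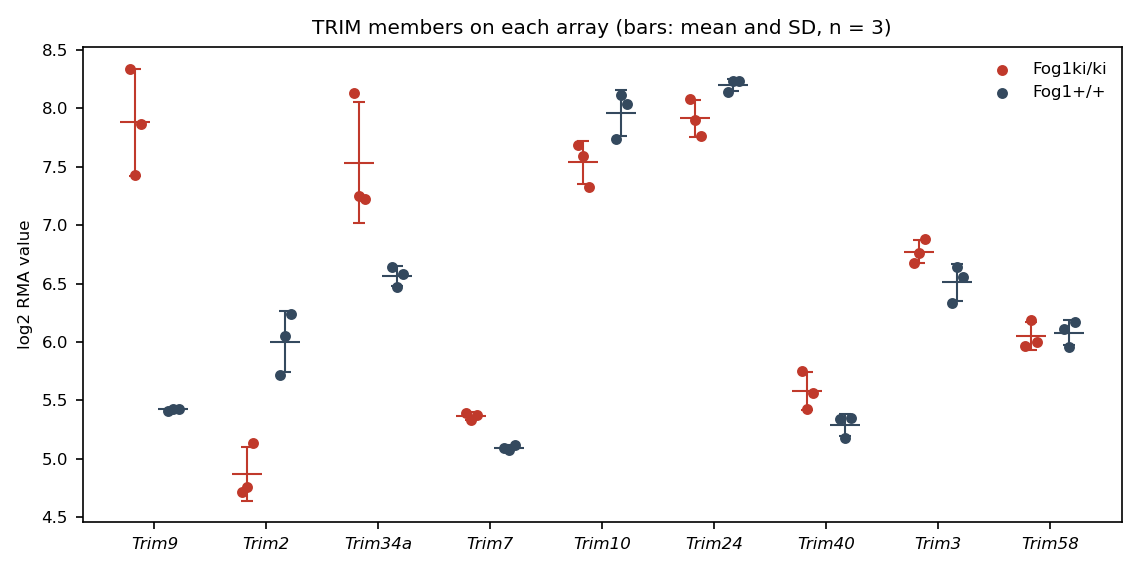
Log2 RMA value on each array (points), with mean and SD (bars, n = 3), for the 8 members with an unadjusted p under 0.05 and for Trim58; Fog1ki/ki is red and Fog1+/+ dark. Trim9 lies between 7.43 and 8.34 in Fog1ki/ki and near 5.43 in Fog1+/+, Trim2 lies lower in Fog1ki/ki, and Trim58 overlaps.

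The erythroid members showed no difference past the threshold. Trim10 measured 7.69, 7.59 and 7.33 in the Fog1ki/ki arrays, against 7.74, 8.11 and 8.04 in the Fog1+/+ arrays. The genotypes did not overlap, though the highest Fog1ki/ki array and the lowest Fog1+/+ array differed by only 0.05. The difference was -0.43 (95% interval -0.73 to -0.12, unadjusted p = 0.0111, adjusted p = 0.301, limma). It stayed below 0 in all 16 alternative settings, between -0.54 and -0.28, and passed in 0 of them (adjusted p from 0.197 to 0.903, limma). The value nearest 0 was that without both replicates 3.

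Trim58 measured 5.97, 6.19 and 6.0 in the Fog1ki/ki arrays and 6.11, 5.96 and 6.17 in the Fog1+/+ arrays. The genotypes overlapped, and the values lay near the array medians. The difference was -0.03 with a 95% interval of -0.26 to 0.21 (limma adjusted p = 0.965), and its sign turned in some alternative settings. Genes of dynein, the motor that Trim58 acts on, of dynactin and of the dynein regulators Pafah1b1, Nde1 and Ndel1 gave no calls. Of these 17 genes 0 passed in limma, and the median difference was -0.06. An unadjusted p under 0.05 was reached by 0 higher and 2 lower, beside 4.99% and 4.58% of all genes. The lower genes were Dctn6 at -0.28 (adjusted p = 0.459, limma) and the intermediate chain gene Dync1i2 at -0.20 (adjusted p = 0.513, limma).

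Of 22 measured genes of erythroid maturation, 1 fell, 0 rose and 21 did not pass, with a median difference of -0.07. Among all genes 0.397% fell. Of the list 15 lay below 0 and 7 above, beside 8416 of all 19661 genes below 0. An unadjusted p under 0.05 was reached by 2 higher and 4 lower, beside 4.99% and 4.58% of all genes. Add2 at -0.49 (adjusted p = 0.0592, limma) and Bcl2l1 at 0.33 (adjusted p = 0.218, limma) were among the listed genes at that unadjusted p, both without overlap. The gene that fell was Xk, a membrane protein that carries the Kx blood group antigen, at -0.60 (limma adjusted p = 0.0389). This call was lost without any 1 of the 6 arrays (adjusted p from 0.0742 to 0.202, limma). In all, it was lost in 12 of 16 alternative settings. Some of these kept all 6 arrays, such as the second quantile normalization and the replicate block (adjusted p = 0.0625 and 0.0981, limma). The mean of this list was 8.79, 8.63 and 8.69 in the Fog1ki/ki arrays and 8.75, 8.80 and 8.80 in the Fog1+/+ arrays, and the genotypes overlapped. Gata1 itself had a difference of -0.29 (adjusted p = 0.435).

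The bases before the transcription start are shown for Trim9 and Trim2, which passed, and for the erythroid members Trim10 and Trim58, because the GATA letters bound by the partner of FOG1 can be read in them. Each run is the 250 bases before a RefSeq start on GRCm38.p6, 5′ to 3′ on the strand of the gene, and capitals mark GATA with A or T before it and A or G after it, on either strand.
Trim9: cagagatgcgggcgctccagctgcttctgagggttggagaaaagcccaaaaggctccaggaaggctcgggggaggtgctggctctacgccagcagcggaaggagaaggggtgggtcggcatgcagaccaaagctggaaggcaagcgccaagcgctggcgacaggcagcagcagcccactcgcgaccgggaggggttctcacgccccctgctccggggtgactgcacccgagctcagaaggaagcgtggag
Trim2: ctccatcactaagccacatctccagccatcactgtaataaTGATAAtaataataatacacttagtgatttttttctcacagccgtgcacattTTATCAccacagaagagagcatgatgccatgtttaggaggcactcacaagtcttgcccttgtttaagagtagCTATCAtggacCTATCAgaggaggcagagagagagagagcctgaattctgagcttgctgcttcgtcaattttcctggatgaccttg
Trim10: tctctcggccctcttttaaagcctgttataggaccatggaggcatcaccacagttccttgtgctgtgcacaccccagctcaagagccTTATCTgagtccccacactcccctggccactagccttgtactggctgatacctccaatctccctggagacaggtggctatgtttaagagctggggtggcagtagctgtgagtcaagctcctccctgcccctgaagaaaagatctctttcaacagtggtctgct
Trim58: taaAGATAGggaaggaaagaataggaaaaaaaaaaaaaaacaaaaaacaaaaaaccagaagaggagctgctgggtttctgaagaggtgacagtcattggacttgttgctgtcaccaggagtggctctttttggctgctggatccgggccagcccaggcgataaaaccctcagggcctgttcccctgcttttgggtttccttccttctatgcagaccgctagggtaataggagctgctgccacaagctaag
The Trim9 window (chr12:70347615-70347864, minus strand) held none of these letters. Trim2 has 5 windows in the table, and the run shown is the only one of them with a match (chr3:84212839-84213088, minus strand), with 4. The arrays do not show which Trim2 start is used. The Trim10 window (chr17:36869324-36869573, plus strand) held 1, as TTATCT 163 to 158 bases before the start, and the Trim58 window (chr11:58640215-58640464, plus strand) held 1, as AGATAG 247 to 242 bases before it.

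Such letters are common. Of all 32851 promoter windows of this length in RefSeq, 26.5% held at least 1 match, against 9 of 60 windows (15.0%) of the 46 members with a window. Besides Trim2, Trim10 and Trim58 the members with a match were Trim6, Trim27, Trim32, Trim40, Trim69 and Trim72, and their differences ran from -0.25 to 0.29. The letters describe the sequence, and no binding was measured. Members with no window in the table were Trim3, Trim8, Trim11, Trim14, Trim16, Trim29, Trim33, Trim35, Trim36, Trim50, Trim55 and Trim65.

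Trim34a, a SPRY member, had the largest positive difference of the family after Trim9. It measured 8.13, 7.25 and 7.22 in the Fog1ki/ki arrays, against 6.64, 6.47 and 6.58 in the Fog1+/+ arrays. All Fog1ki/ki arrays were above all Fog1+/+ arrays, and Fog1ki/ki replicate 1 stood apart from the other Fog1ki/ki arrays. The difference was 0.97 (95% interval 0.47 to 1.47, adjusted p = 0.124, limma) and did not pass. Without Fog1ki/ki replicate 1 it was 0.67 and passed (limma adjusted p = 0.0276). Trim34a has close copies in the mouse genome, and how far this probe set reads them was not tested.

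Trim34a lies in a run of 6 members that follow each other among the tested genes of chromosome 7. Trim6, Trim12a, Trim30a and Trim30d in that run had differences of 0.05, 0.08, 0.19 and 0.24, and none passed. Trim12c measured 6.59, 5.71 and 4.96 in Fog1ki/ki and 6.24, 6.49 and 6.01 in Fog1+/+. The Fog1ki/ki arrays had an SD of 0.82, the widest of any member, and the difference of -0.49 (adjusted p = 0.712, limma) was -0.10 without Fog1ki/ki replicate 3 and -0.91 without Fog1ki/ki replicate 1. A second run of 5 members on chromosome 17 holds Trim10. Its members Trim26, Trim15, Trim40 and Trim31 had differences of 0.21, -0.06, 0.29 and 0.12, so Trim10 was the lowest of that run.

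**Figure D3:**
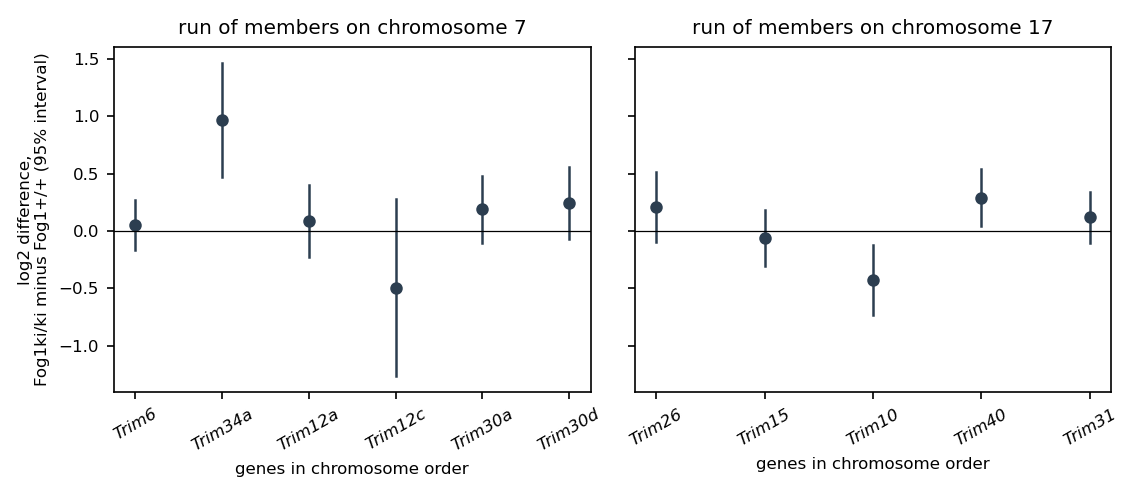
Log2 difference, Fog1ki/ki minus Fog1+/+, with its 95% interval from limma (3 arrays each) for the runs of adjacent members on chromosomes 7 and 17, in gene order without scale. Trim34a at 0.97 is the highest point and Trim12c, at -0.49 with the widest interval, the lowest, and none of these members passed the test.

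Trim25, Trim21, Trim56 and Trim30a, like Trim34a, did not pass. Trim25, which ubiquitinates the RNA sensor RIG-I, had a difference of -0.06 (95% interval -0.27 to 0.15), and Trim21, a cytosolic antibody receptor, one of 0.00 (95% interval -0.34 to 0.34). Trim56, reported to act on nucleic acid sensing, had 0.27 (adjusted p = 0.690, limma), and the value ran from 0.12 to 0.43 over the alternatives. Trim30a had 9.44, 9.59 and 9.26 in Fog1ki/ki and 9.28, 9.41 and 9.03 in Fog1+/+, and the genotypes overlapped. Of 19 measured genes of innate sensing and the interferon response 0 passed in limma, and their median difference was -0.02. An unadjusted p under 0.05 was reached by 3 higher and 1 lower, beside 4.99% and 4.58% of all genes. The smallest p was that of Ddx58, the gene of RIG-I, with -0.49 (adjusted p = 0.449). The mean of this list ranged from 6.39 to 6.45 in the Fog1ki/ki arrays and from 6.35 to 6.66 in the Fog1+/+ arrays.

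The chromatin members with a PHD finger and a bromodomain did not differ past the threshold. Trim28, also called KAP1, the corepressor of KRAB zinc finger proteins, measured 9.14, 9.05 and 9.20 in Fog1ki/ki and 9.30, 9.16 and 9.14 in Fog1+/+, a difference of -0.07 (95% interval -0.28 to 0.14). Trim33, or TIF1-gamma, which binds SMAD proteins and is needed for red cell formation in zebrafish, measured 10.61, 10.58 and 10.48 in Fog1ki/ki and 10.50, 10.58 and 10.59 in Fog1+/+. Its difference was 0.00 (95% interval -0.20 to 0.20). Trim66 was at 0.00 too (95% interval -0.28 to 0.29). Trim24, or TIF1-alpha, a cofactor of nuclear receptors, measured 8.08, 7.90 and 7.76 in Fog1ki/ki and 8.14, 8.23 and 8.23 in Fog1+/+. Those arrays did not overlap, and the difference of -0.29 did not pass (unadjusted p = 0.0237, adjusted p = 0.402, limma).

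The genes that work with these chromatin members included 1 call. Of 16 measured partners of the KAP1 corepressor 1 rose, 0 fell and 15 did not pass, with a median difference of -0.07. The gene that rose was Chd3, a helicase of the NuRD complex, at 8.46, 8.57 and 8.45 in Fog1ki/ki and 7.47, 7.56 and 7.26 in Fog1+/+ (difference 1.06, limma adjusted p = 0.00280). Without both replicates 3 the difference was 1.0 for Chd3 and -0.95 for Atl1, and neither passed (adjusted p = 0.0700 each, limma). Chd4, the other NuRD helicase of the list, measured 10.84, 10.77 and 10.94 in Fog1ki/ki and 11.14, 11.16 and 11.05 in Fog1+/+, without overlap (difference -0.27, adjusted p = 0.353, limma). In that list an unadjusted p under 0.05 was reached by 1 higher and 1 lower gene. Of 16 genes of TGF-beta and BMP signalling, the pathway Trim33 acts on, 0 passed in limma, an unadjusted p under 0.05 was reached by 0 higher and 1 lower, and the median was 0.05. The lower gene was Tgfb1 at -0.41 (adjusted p = 0.196).

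Members with other architectures or roles did not pass either. Trim7, which binds the glycogen primer protein glycogenin, had narrow groups, at 5.39, 5.33 and 5.38 in Fog1ki/ki and 5.09, 5.08 and 5.12 in Fog1+/+. They did not overlap, and the difference of 0.27 did not pass (unadjusted p = 0.0106, adjusted p = 0.296, limma). Trim40, a member without a C-terminal domain, measured 5.75, 5.43 and 5.56 in Fog1ki/ki and 5.34, 5.18 and 5.35 in Fog1+/+, also without overlap (difference 0.29, adjusted p = 0.427, limma). Both genes lay below the array medians. Trim37, a centriole regulator mutated in human mulibrey nanism, had -0.17 (adjusted p = 0.625, limma) and Trim45 -0.22 (adjusted p = 0.655, limma). Trim27 had 0.08, Trim35 0.00 and Trim59, which is anchored in membranes, -0.13, and the sign of Trim59 and of Trim35 turned in some alternative settings.

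At an unadjusted p under 0.05, 8 of 58 members (13.8%) differed, 5 higher and 3 lower, beside 9.57% of all genes (4.99% higher and 4.58% lower). The other 50 members had differences from -0.49 to 0.27, of which 23 were above 0, 25 below and 2 at 0. In 7 members both genotype means were under every lower quartile: Trim12a, Trim30d, Trim31, Trim36, Trim38, Trim55 and Trim75. In 28 members both means lay at or above the array medians. The Fog1ki/ki arrays had the larger SD in 38 members (65.5%), close to the 64.7% of all genes.

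**Figure D4:**
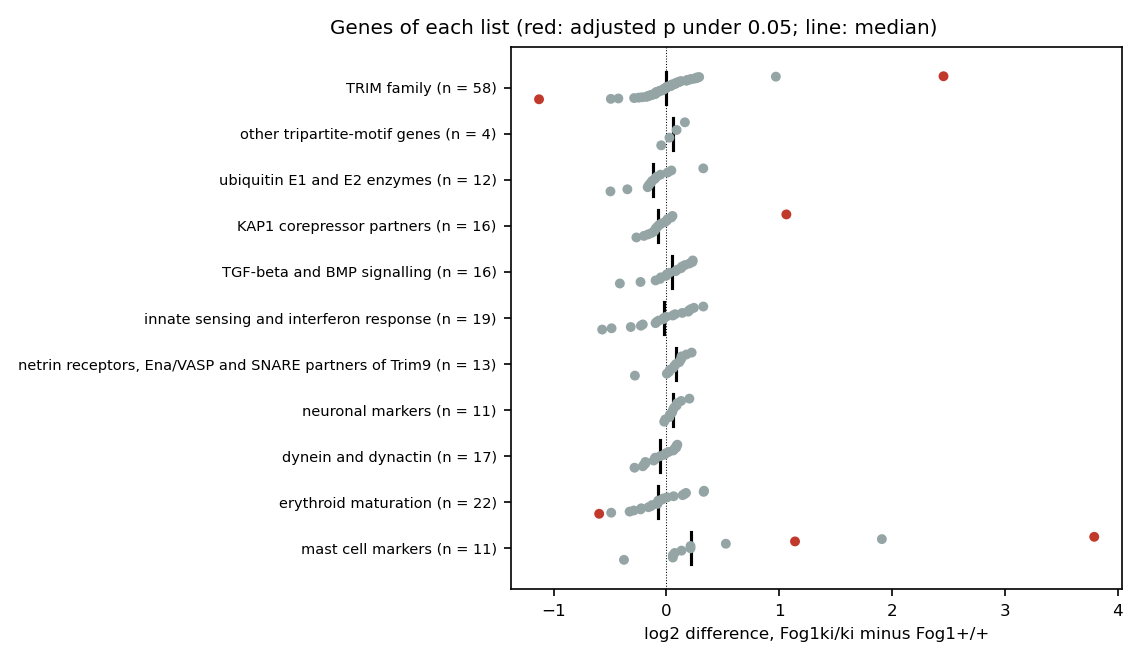
Log2 difference of each gene, Fog1ki/ki minus Fog1+/+, for the TRIM family and for lists of genes around it (points), with list medians (lines) and genes past an adjusted p of 0.05 in limma in red. List medians lie between -0.12 and 0.21. The largest difference, Ms4a2 at 3.79, is in the mast cell list, and Trim9 at 2.46 comes next.

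Genes that share the tripartite motif under other names, and the enzymes that supply ubiquitin, gave no calls. Mid1, Mid2, Pml and Mefv had a median difference of 0.06, and none passed (0 of 4 in limma, 0 at an unadjusted p under 0.05), with the smallest p for Pml, the organiser of nuclear bodies, at 0.16 (adjusted p = 0.721). Of 12 measured E1 and E2 enzymes 0 passed in limma, and the median was -0.12. An unadjusted p under 0.05 was reached by 0 higher and 1 lower, beside 4.99% and 4.58% of all genes. The lower gene was Ube2d1, an E2 enzyme that many RING ligases use, with 7.68, 7.22 and 7.05 in Fog1ki/ki and 8.04, 7.72 and 7.68 in Fog1+/+ (difference -0.50, adjusted p = 0.349, limma). Its genotypes touched, since the highest Fog1ki/ki array equalled the lowest Fog1+/+ array.

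**Figure D5:**
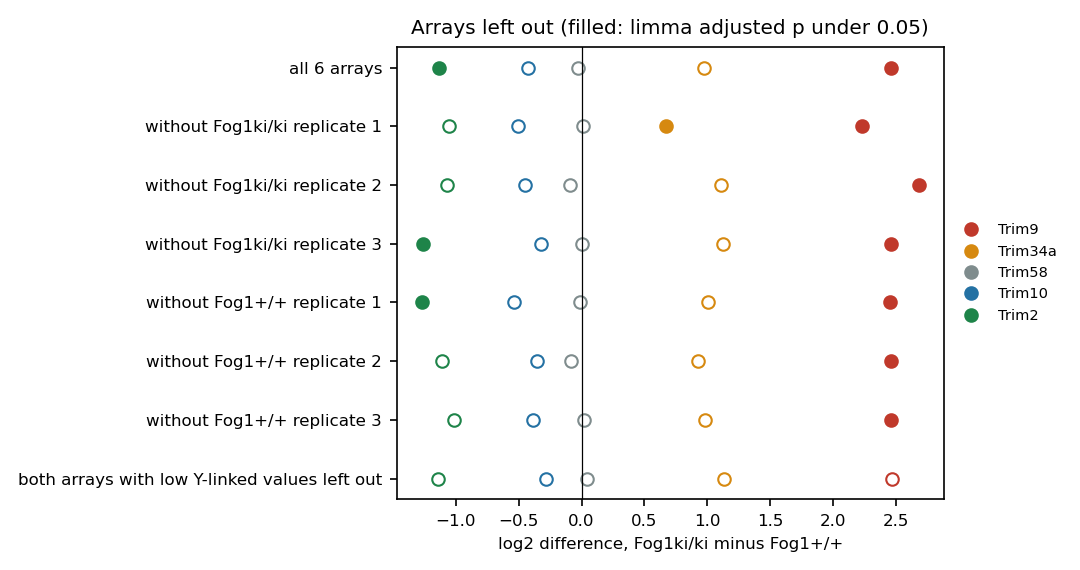
Log2 difference, Fog1ki/ki minus Fog1+/+, of 5 members with all 6 arrays and with arrays left out (rows); filled points had a limma adjusted p under 0.05. Trim9 was past the threshold in every row but the last, Trim2 in 3 rows, Trim34a in 1, and Trim10 and Trim58 in none.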

How the data were processed

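Trizol-extracted RNA of sorted progenitors was amplified (WT-Ovation Pico), turned into biotin-labelled sense cDNA and hybridised to 1-colour arrays, per the labels' protocols. The values the authors deposited are log2 intensities with 2 decimals, a scale read from the values; RMA is named in the submitters' processing notes, and which software ran it is not given in the sources used here. RMA compresses differences of dim probe sets, and the number of arrays limits the precision. The labels call the samples biological replicates without naming animals or litters.

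Of 25668 probe sets, 20777 had 1 gene symbol in the platform annotation, which can be old, 232 had several and 4659 none. Where a gene had several, its probe set of highest mean stood for it, which gave 19661 genes with no filter. The 58 TRIM symbols matched RefSeq genes (GRCm38.p6) through Entrez identifiers, with 0 changed. RefSeq gave chromosomes, gene order and promoter sequences.

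The difference between genotypes was fitted with limma 3.58.1 (lmFit, eBayes; R 4.3.3) with no other term and tested two-sided, with Benjamini-Hochberg adjustment over all genes and a threshold of 0.05. With 3 arrays a genotype the smallest p of an exact permutation test is 0.1, so none was used. Intervals are limma's 95% intervals, not adjusted for the number of genes. Lists were described by counts and medians, with no set test. The code was tested on simulated data. Subfamilies follow the usual classes of C-terminal domain.

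The members, the lists, Trim9 as a gene to name and the attention to replicates 3 were chosen with earlier results of these data known. Named were Trim9, Trim10 and Trim58, members past an adjusted or unadjusted 0.05, the 6 largest differences in each direction, members without overlap and a difference of at least 0.3, a set of well-known members and, per list, the genes past the threshold or else the smallest p. Other genes named were chosen after their values were seen. Same-numbered arrays of the genotypes were checked for pairing, and the alternatives tried are given in the closing section. Figures were drawn with matplotlib 3.10.9.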

Additional observations from a re-analysis of the deposited data

How the results depend on the processing

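The alternatives changed the scaling (a second quantile normalization, or centring each array on its median), the features (without the dimmest 25% of genes, probe sets averaged, all probe sets kept), the model (intensity trend, weights per array, replicate block, a term for the arrays with low Y-linked values), the threshold (0.1) and the arrays used. The number of members past the threshold was 2 in each of these except with arrays left out, where it was 1 to 2 without any 1 array and 0 without both replicates 3. In that last setting, with 2 arrays per genotype, Trim9 had a difference of 2.47 (limma adjusted p = 0.0552), and 24 of all genes passed in place of 152. Without any 1 array 60 to 134 genes passed. Trim9 ran from 2.23 to 2.68, Trim10 from -0.54 to -0.32 and Trim58 from -0.10 to 0.02 without any 1 array. The median over members, 0.00, was -0.0433 with centring on medians, where the median of all genes was -0.02, and -0.01 to 0.04 without any 1 array. Deviations of same-numbered arrays from their genotype means had correlations over genes of 0.07, -0.01 and 0.13. Fog1ki/ki replicates 1 and 3 correlated best with their same-numbered Fog1+/+ array, while Fog1ki/ki replicate 2 did so with Fog1+/+ replicate 1 (0.06). Both replicates 3 share low Y-linked values, so these correlations cannot settle whether arrays were paired. With the replicate block 133 genes passed, 2 of them members, with Trim9 at 2.46, Trim10 at -0.43, Trim58 at -0.03 and the median at 0.00. The causes of these changes were not tested. Dim signal limits the 7 members below the lower quartiles.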

Other observations

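Probe sets that name several genes, among them TRIM genes, entered no comparison above. The one for H2aw and Trim17 averaged 6.99 in Fog1ki/ki and 7.32 in Fog1+/+ (log2 difference -0.33, limma adjusted p = 0.361 over all probe sets). The one for Trim30b and Gm38525 averaged 4.75 in Fog1ki/ki and 4.64 in Fog1+/+, and the one for Trim60 and Trim61 averaged 4.87 in Fog1ki/ki and 4.81 in Fog1+/+, with differences of 0.11 and 0.07 that did not pass.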
